A study of Mus musculus with 24 samples.

Results

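The 8 genes described here make up the *Pthlh* ligand and receptor pair and the lipid program of the lung lipofibroblast. They are *Pthlh*, *Pth1r*, *Tcf21*, *Pparg*, *Lpl*, *Plin2*, *Fabp4* and *Fabp5*, chosen by symbol from the 23420 genes of each of 4 expression tables. All 8 were found in every table. RNA came from the left lung lobe of 24 mice in 8 groups of 3, at postnatal day (P) 2 and P5. The mutants were *Vangl2f/f; Sox9Cre/+* mice, which lose a core planar cell polarity gene, and *Ror2f/f; Sox9Cre/+* mice, which lose a Wnt5a receptor. Each mutant and age had its own 3 control lungs, titled Control(Vangl1/2) or Control(Ror2), with a genotype label of WT. Whether the sequenced controls carried Cre, and whether they were littermates of the mutants, is not given in the sources used here. Cre was expressed from the *Sox9* locus, which is active in SOX9+ distal lung epithelium and also in other organs, while the whole lobe was sequenced, so every value mixes epithelium, mesenchyme, vessels and blood. In such bulk samples, fewer cells of a type and less RNA per cell cannot be told apart.

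Lipofibroblasts are interstitial fibroblasts of the alveolar wall that lie next to alveolar type II cells and store neutral lipid in droplets. Parathyroid hormone-related protein, the product of *Pthlh*, is secreted by the stretched distal epithelium and binds PTH1R on these fibroblasts, where cyclic AMP signalling raises PPAR gamma and its lipid-handling targets. The stored lipid is passed to type II cells for surfactant synthesis. The question put to the tables was therefore whether this epithelium-to-fibroblast axis changed when a polarity gene was removed from the epithelium.

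Values are normalized counts, which are the reads that the authors counted on a gene, scaled by each lung's size factor, and fold changes are mutant over control on the log2(normalized count + 1) scale from limma, with the Benjamini-Hochberg adjusted p over all genes tested. A change was called at an adjusted p under 0.05. Between 16178031 and 21546673 reads fell on genes in 23 of the lungs. Control replicate 1 of the P5 *Ror2* comparison held 13823693 reads and had 0 reads on all but 1 gene each of chromosomes 7 and 9, on all genes of chromosomes 6, 8 and X and on most of chromosome 5, counted over genes above 50 in both other controls, so it was treated as missing there, and *Lpl*, *Pparg*, *Pthlh* and *Pth1r* have 2 controls in that comparison. Whole-gene counts of the targeted genes, which include exons outside any deleted part, averaged 276.9 in controls and 213 in mutants for *Vangl2* at P2 (adjusted p = 0.241), 325 and 161 for *Vangl2* at P5 (adjusted p = 0.0604), 517 and 398 for *Ror2* at P2 (adjusted p = 0.250), and 497 and 441 for *Ror2* at P5 (adjusted p = 0.692). For the *Vangl2* mutants at P5 and the *Ror2* mutants at P2 the titles and the genotype labels name different genes, and the titles were followed. Lung identity was plain in every lung, since all 8 alveolar type II markers had reads in each of the 23 lungs without missing chromosomes.

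None of the 8 genes passed the threshold in any of the 4 comparisons. The background was 3.59% of 17448 genes in the *Vangl2* comparison at P2, 0.563% of 17410 at P5, 0.0% of 17541 in the *Ror2* comparison at P2 and 0.122% of 17179 at P5. The first of these shares depended on single lungs, since 1 gene passed without control replicate 2 or 3 and 2333 passed without mutant replicate 3. At an unadjusted p under 0.05 the counts were 3, 2, 0 and 1 of 8, beside 22.5%, 18.8%, 19.3% and 18.4% of all genes tested, so the 8 genes lay above this background in the *Vangl2* comparisons and below it in the *Ror2* comparisons, each time by less than 2 genes. With edgeR on the recovered reads 0 passed in each comparison, beside 3.67%, 0.396%, 0.0% and 0.208% of all genes fitted. All 8 could be fitted except in the P5 *Ror2* comparison, where the 4 genes on covered chromosomes were. DESeq2 passed *Fabp4* in the P2 *Vangl2* comparison and *Tcf21* in the P5 *Ror2* comparison, where again only the 4 genes on covered chromosomes were fitted. It passed 0 in the other 2. DESeq2 called 13.0%, 8.34%, 6.12% and 6.74% of all genes to which it gave an adjusted p in the *Vangl2* comparisons at P2 and P5 and the *Ror2* comparisons at P2 and P5, the last on covered chromosomes alone. The 1 of 8 in the P2 *Vangl2* comparison is therefore close to its background. In the P5 *Vangl2* comparison, where lungs that share a replicate number deviated in the same direction, a fit with that number as a block passed *Plin2* and *Fabp5*, both higher in mutants, beside 8.95% of all genes called by that fit and 5.47% called as higher.

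Groups that did not overlap were seen for 1 gene in the *Vangl2* comparison at P2 (*Pth1r*), 2 at P5 (*Pthlh* and *Pth1r*), 0 in the *Ror2* comparison at P2 and 2 at P5 (*Tcf21* and *Lpl*). Among all genes tested, 29.6%, 25.7%, 25.7% and 29.9% had groups that did not overlap, and in the last comparison the share was 26.0% for genes with 6 lungs and 37.7% for genes with 5. Changes were also compared between the mutants at each age and between the ages in each mutant. None of the 8 genes passed in these 4 tests, beside 0.0% and 0.0118% of all genes between the mutants at P2 and P5 and 0.0% in both tests between ages. At an unadjusted p under 0.05 the counts were 1 of 8 (*Fabp4*) and 1 of 8 (*Tcf21*) between the mutants at P2 and P5, 0 of 8 between ages in *Vangl2* mutants and 2 of 8 (*Tcf21* and *Fabp4*) in *Ror2* mutants, beside 4.6%, 4.73%, 8.45% and 9.5% of all genes.

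**Figure D1:**
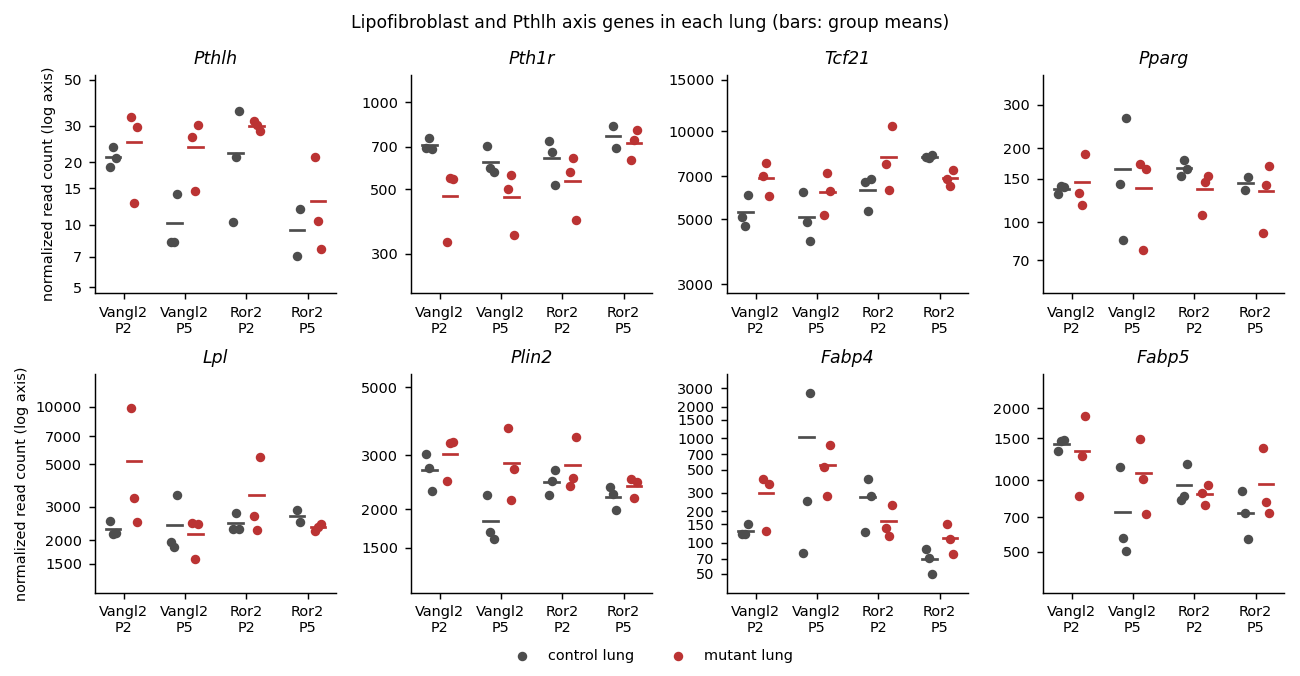
Normalized count (log axis) of each gene in every control lung (grey) and mutant lung (red) of the 4 comparisons, with bars at the group means. *Pth1r* lies lower in all 3 *Vangl2* mutants than in their controls at both ages, *Lpl* has single high mutant lungs at P2 (9878 and 5441), and *Fabp4* has 1 control lung at 2734 in the P5 *Vangl2* comparison.

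Per kilobase of transcript, *Tcf21* was the most abundant of the 8 genes and *Pthlh* the least in all 8 groups. Group means of normalized counts per kilobase ran from 4021 to 6451 for *Tcf21*, from 975 to 1604 for *Plin2*, from 741 to 1434 for *Fabp5*, from 525 to 1270.2 for *Lpl*, from 204 to 331 for *Pth1r*, from 75.4 to 93.7 for *Pparg* and from 5.91 to 18.8 for *Pthlh*. *Fabp4* took places from 2 to 7 in this order and ran from 76.9 to 1141. Neighbours could lie within the spread of the lungs. In the P2 *Vangl2* controls *Fabp5* (1434) and *Plin2* (1424) differed by less than the SD of either, as did *Pparg* (81.3) and *Fabp4* (76.9) in the P5 *Ror2* controls. The tables were normalized separately, so levels from different tables stand side by side without a test.

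*Pthlh* (chr6:147252101-147264183, minus strand, mm10) encodes the ligand, and it was read so rarely that counting noise was large. Its normalized counts over 23 lungs ran from 7.03 to 35.4. In the P5 *Vangl2* comparison the control lungs had 8.21, 8.23 and 14.1 normalized counts, and the mutant lungs had 26.6, 14.5 and 30.4. All 3 mutants were above all 3 controls, an order that 13.2% of all genes showed, although mutant replicate 2 was close to control replicate 3. The log2 fold change was 1.13 (standard error 0.44, 95% interval 0.12 to 2.14, adjusted p = 0.220). The exact two-sided permutation test gave p = 0.1, the smallest that 3 lungs against 3 allow. These values rest on 9, 7 and 14 reads in control replicates 1 to 3 and 29, 13 and 34 in the mutants. The exact Poisson intervals of the lowest and the highest, which cover counting error only, were 2.81 to 14.4 and 23.5 to 47.5 reads. Those of control replicate 3 and mutant replicate 2 overlapped, at 7.65 to 23.5 and 6.92 to 22.2. In reads this mutant lay below that control, and above it only after scaling by size factors.

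In the other comparisons the *Pthlh* groups overlapped. At P2, the *Vangl2* controls had 19.0, 23.7 and 21.1 normalized counts and the mutants 33.1, 12.8 and 29.5, so that the mutants lay on either side of the controls (log2 fold change 0.13, standard error 0.41). The *Ror2* controls had 10.3, 21.1 and 35.4 at P2 and the mutants 31.6, 30.3 and 28.4 (log2 fold change 0.57, standard error 0.44). At P5 the 2 *Ror2* controls had 7.03 and 11.9 and the mutants 21.1, 10.4 and 7.63 (log2 fold change 0.35, standard error 0.52). The change in the *Vangl2* mutants at P5 differed from that at P2 by 1.00 on the log2 scale, with a 95% interval from -0.29 to 2.29 (limma over 12 lungs, adjusted p = 0.637).

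*Pth1r* (chr9:110722085-110747145, minus strand) encodes the G protein-coupled receptor that carries the signal into the fibroblast. In the P2 *Vangl2* comparison the controls had 693, 751 and 691 normalized counts and the mutants 329.7, 547 and 541. Every mutant was below every control, and mutant replicate 1 was the lowest. The fold change was -0.63 on the log2 scale (standard error 0.20, 95% interval -1.09 to -0.17, adjusted p = 0.124, exact permutation p = 0.1, two-sided), and 14.9% of all genes had all mutants below all controls in this comparison.

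The same order held in the *Vangl2* lungs at P5, where the controls had 703, 591 and 572 normalized counts of *Pth1r* and the mutants 503, 561 and 346.7. Mutant replicate 2 was only a little under control replicate 3, and the log2 fold change was -0.43 (standard error 0.20, 95% interval -0.90 to 0.04, adjusted p = 0.306). At this age 12.5% of all genes had all mutants below all controls. In the *Ror2* lungs the groups overlapped. The controls had 732, 671 and 517 and the mutants 576, 640.0 and 392 at P2 (log2 fold change -0.27, standard error 0.21), and the 2 controls had 829 and 697 and the mutants 630.1, 739 and 802 at P5 (log2 fold change -0.08, standard error 0.13). The difference between the mutants was 0.36 on the log2 scale at P2 (95% interval -0.33 to 1.04) and 0.35 at P5 (95% interval -0.24 to 0.94), neither past the threshold (adjusted p = 0.975 and 0.998).

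Markers of matrix fibroblasts had lower sums in the same lungs. Such a sum follows the most abundant markers of its list, and the share of other lists with lower sums was not counted. The summed normalized count of 8 matrix fibroblast markers, led by collagen genes, ran from 123266 to 138049 in the P2 *Vangl2* controls and from 84452 to 97413 in the mutants, and from 141556 to 174504 in the P5 controls and from 64228 to 119152 in the mutants. It was likewise lower in all *Ror2* mutants, at 63462 to 107353 beside 117046 to 133825 in controls at P2 and at 104325 to 134886 beside 147133 to 153353 in 2 controls at P5. Of the 8 markers 1, *Col1a1*, passed the test, in the P2 *Vangl2* comparison alone, with a log2 fold change of -0.64 (standard error 0.13, adjusted p = 0.0394). The *Col1a1* call was lost with the replicate block (adjusted p = 0.0519), without the variance trend (0.104), without the filter on low values (0.179), over all 12 lungs of that age (0.0933), and without any 1 control lung or mutant replicate 2 (0.104 to 0.210), in each case by limma. None of the 8 was listed at 0 in any lung with reads on its chromosome. With the replicate block in the P5 *Vangl2* comparison 2 of the 8 passed, *Pdgfrb* and *Fbln1*, both lower in mutants, beside 8.95% of all genes. In the P2 *Vangl2* comparison the calls among other cell type markers included *Sftpa1* and *Slc34a2* of type II cells and *Hopx* of type I cells, higher in mutants, and *Myh11* of smooth muscle, lower. Also called higher were *C1qa* of macrophages and 5 of 5 neutrophil markers (*S100a8*, *S100a9*, *Retnlg*, *Mmp8* and *Ngp*). The part of these markers in the *Pth1r* values was not tested.

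Other genes of this signalling were next counted from a list of 21. It holds genes that carry the PTH1R signal onward (G proteins, adenylyl cyclases, protein kinase A subunits, CREB factors and arrestins). It also holds the sister ligands *Pth* and *Pth2* and the other receptor *Pth2r*, which do not. Of the 21 genes, 19, 19, 19 and 18 were tested in the *Vangl2* comparisons at P2 and P5 and the *Ror2* comparisons at P2 and P5, and 0 passed in each. At an unadjusted p under 0.05 the counts were 1, 6, 4 and 3, beside 22.5%, 18.8%, 19.3% and 18.4% of all genes tested. With edgeR 0 passed, and with DESeq2 1 of 18 passed in the P2 *Ror2* comparison, *Prkar2b*, a regulatory subunit of protein kinase A, which was lower in mutants. In the P5 *Ror2* comparison both tools tested 14 of the 21, on covered chromosomes. The median log2 fold change of the list was -0.12, -0.31, 0.01 and -0.14, beside 0.00, 0.00, -0.01 and 0.00 over all genes tested. With the replicate block in the P5 *Vangl2* comparison 2 of 19 passed, *Adcy2* and *Adcy3*, both adenylyl cyclases and both lower in mutants. That fit called 8.95% of all genes, so the count is close to its background.

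**Figure D2:**
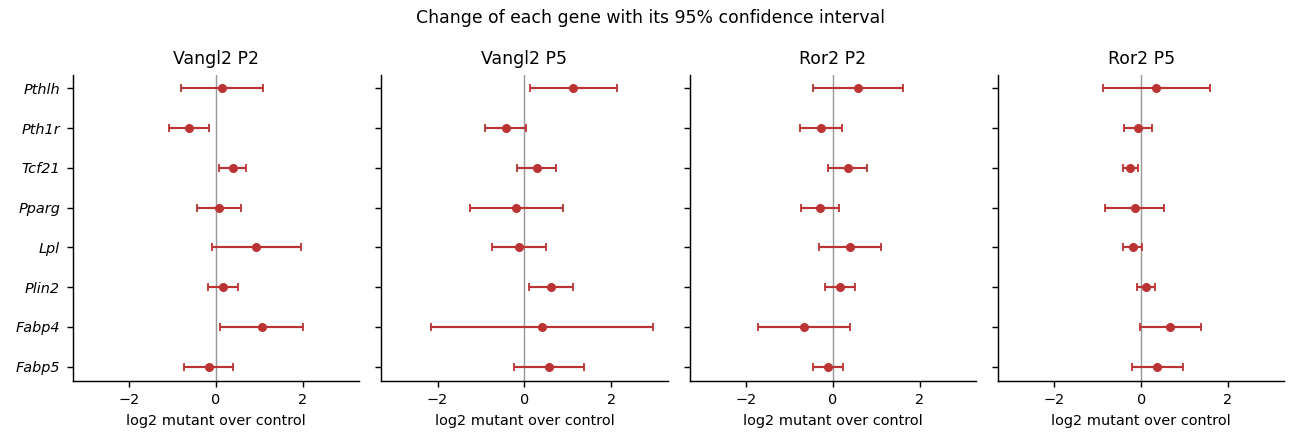
Log2 fold change of each gene, mutant over control, with its 95% confidence interval from limma, in the 4 comparisons. The interval excludes 0 for *Pth1r*, *Tcf21* and *Fabp4* at P2 and for *Pthlh* and *Plin2* at P5 in the *Vangl2* comparisons and for *Tcf21* at P5 in the *Ror2* comparison, and none of these has an adjusted p under 0.05.

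*Tcf21* (chr10:22817281-22820174, minus strand) encodes a basic helix-loop-helix factor of the lung mesenchyme that marks the lipofibroblast lineage. In the P5 *Ror2* comparison the controls had 8151, 8101 and 8269 normalized counts and the mutants 6842, 6486 and 7342. The controls lay close together (SD 86.1), and all 3 mutants were below them. The log2 fold change was -0.25 (standard error 0.07, 95% interval -0.41 to -0.08, adjusted p = 0.166), and 12.3% of the 11523 genes with all 6 lungs had all mutants below all controls. DESeq2, on the chromosomes covered in all 6 lungs, gave an adjusted p of 0.0312. That fit called 6.74% of 10180 genes on these chromosomes, beside 0.122% of 17179 genes by limma over all chromosomes.

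At P2 the mean of *Tcf21* was higher in both kinds of mutants than in their controls, without a call. The *Vangl2* controls had 5106, 4744 and 6070.4 normalized counts and the mutants 7012, 7792 and 6014, with mutant replicate 3 inside the range of the controls. The log2 fold change was 0.39 (standard error 0.13, adjusted p = 0.151), and without that mutant lung it was 0.49 with an adjusted p of 0.0462. The *Ror2* controls had 6712, 5334 and 6852 and the mutants 7697, 6308 and 10408, overlapping at the low end (log2 fold change 0.35, standard error 0.19). At P5 the *Vangl2* groups overlapped as well, at 6200.1, 4884 and 4199 in controls and 5152, 7173 and 6221 in mutants (log2 fold change 0.28, standard error 0.20). The change in *Ror2* mutants at P5 was 0.60 lower than that at P2 on the log2 scale (difference -0.60, 95% interval -1.07 to -0.12, limma adjusted p = 0.463).

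*Pparg* (chr6:115360951-115490399, plus strand) encodes PPAR gamma, the nuclear receptor that drives lipid-storage genes. Its normalized counts ran from 77.2 to 266 over 23 lungs, and the groups overlapped in all 4 comparisons. In the P2 *Vangl2* comparison the controls had 131, 140.4 and 139 and the mutants 131, 117 and 189 (log2 fold change 0.06, 95% interval -0.44 to 0.57). In the P2 *Ror2* comparison the controls had 154, 178 and 165 and the mutants 107, 146 and 154 (log2 fold change -0.30, 95% interval -0.74 to 0.14). At P5 the *Vangl2* lungs were widely spread, with 143, 84.6 and 266 in controls and 173, 77.2 and 164 in mutants (log2 fold change -0.18, 95% interval -1.25 to 0.89), and the *Ror2* lungs had 135 and 153 in 2 controls and 89.9, 141 and 169 in mutants (log2 fold change -0.15, 95% interval -0.83 to 0.52).

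Of 24 partners and targets of PPAR gamma, all 24 were tested in each comparison and 0 passed in each, with 12, 3, 7 and 7 at an unadjusted p under 0.05 in the *Vangl2* comparisons at P2 and P5 and the *Ror2* comparisons at P2 and P5. The shares over all genes at that p were 22.5%, 18.8%, 19.3% and 18.4%. The median log2 fold change of the 24 genes was 0.28 and 0.0833 in the *Vangl2* mutants and 0.10 and 0.0302 in the *Ror2* mutants at P2 and P5. With DESeq2 7 of the 24 passed in the P2 *Vangl2* comparison, all higher (*Cebpa*, *Cebpd*, *Ppargc1a*, *Ppara*, *Cd36*, *Pdk4* and *Plin4*), where that tool called 7.02% of all genes as higher, beside 1 with edgeR (*Cebpd*). In the P2 *Ror2* comparison DESeq2 passed 2 of 19, *Cebpa* and *Pdk4*, both higher, where it called 3.64% of all genes as higher, and edgeR passed 0. At P5 both tools passed 0 in either comparison, but on the covered chromosomes of the *Ror2* comparison edgeR tested 16 of the 24 and DESeq2 15. With the replicate block in the P5 *Vangl2* comparison 2 passed, *Cebpa* and *Cebpd*, which encode C/EBP factors, both higher, beside 5.47% of all genes called as higher.

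*Lpl* (chr8:68880491-68907448, plus strand) encodes lipoprotein lipase, which frees fatty acids from circulating triglyceride for uptake. The largest single values of the gene were in P2 mutants. The *Vangl2* controls had 2506, 2151 and 2181 normalized counts and the mutants 9878, 3322 and 2480.3, so that replicate 1 stood far above all others and replicate 3 lay inside the control range (log2 fold change 0.93, standard error 0.44, adjusted p = 0.261). Without mutant replicate 1 the log2 fold change was 0.34. The P2 *Ror2* comparison had the same shape, with 2279, 2766 and 2300.0 in controls and 2675, 2254 and 5441 in mutants (log2 fold change 0.39, standard error 0.30). Without mutant replicate 3 it was 0.01.

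At P5 *Lpl* was narrow in range in the *Ror2* lungs. In the *Ror2* comparison the 2 controls had 2878 and 2496 normalized counts and the mutants 2237, 2352 and 2426, all below the controls (log2 fold change -0.20, standard error 0.09, adjusted p = 0.291). With 2 controls this order is common, and 18.4% of the 5656 genes with 5 lungs showed it. In the *Vangl2* comparison the groups overlapped, with 1943, 1830.3 and 3459 in controls and 2454, 1590.4 and 2431 in mutants (log2 fold change -0.12, standard error 0.27). Control replicate 3 was the highest, and without it the log2 fold change turned to 0.17.

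*Plin2* (chr4:86648386-86670060, minus strand) encodes the coat protein of cytoplasmic lipid droplets. In the P5 *Vangl2* comparison the controls had 2227, 1687 and 1609 normalized counts and the mutants 3670.3, 2144 and 2716. Mutant replicate 2 fell inside the control range, but each mutant was above the control of the same number. The log2 fold change was 0.61 (standard error 0.22, 95% interval 0.10 to 1.11, adjusted p = 0.200) without the block and 0.61 (standard error 0.12, adjusted p = 0.0298) with it. In the other comparisons the groups overlapped and the log2 fold changes were 0.17 in the *Vangl2* mutants at P2, 0.16 in the *Ror2* mutants at P2 and 0.11 at P5, with standard errors of 0.15, 0.15 and 0.09.

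*Fabp5* (chr3:10012548-10016607, plus strand) encodes a fatty acid binding protein made by several lung cell types. It has a processed pseudogene in the annotation, and how the authors' counting split shared reads is not given in the sources used here, so its level is uncertain to that extent. In the P5 *Vangl2* comparison the controls had 1134, 575 and 507 normalized counts and the mutants 1488, 1012 and 719. The groups overlapped, yet within each number the mutant was higher, as for *Plin2*. The log2 fold change was 0.57 without the block (standard error 0.35, 95% interval -0.24 to 1.38, adjusted p = 0.422) and 0.57 with it (standard error 0.12, adjusted p = 0.0361). In the other comparisons it was -0.17, -0.11 and 0.37 in the *Vangl2* mutants at P2 and the *Ror2* mutants at P2 and P5, with standard errors of 0.25, 0.15 and 0.25.

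**Figure D3:**
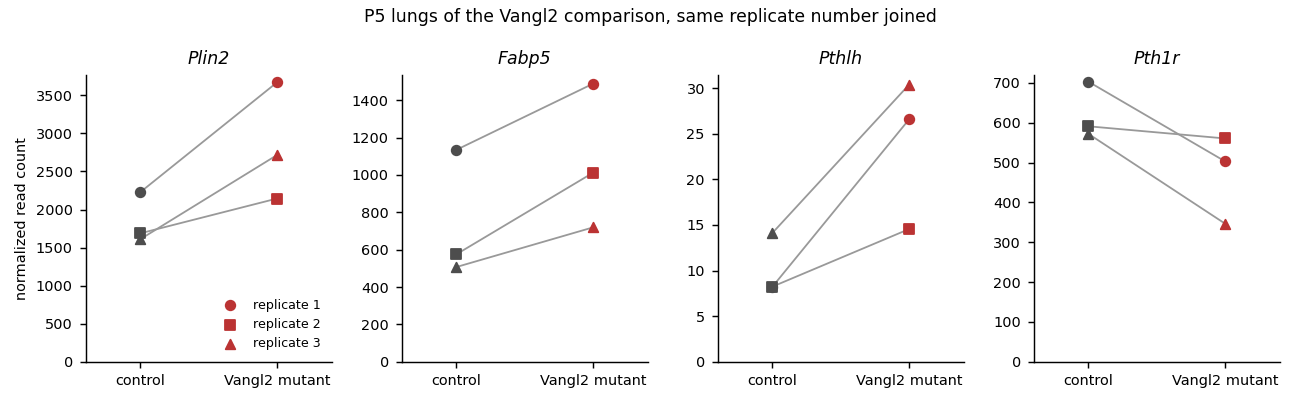
Normalized counts of *Plin2*, *Fabp5*, *Pthlh* and *Pth1r* in the P5 lungs of the *Vangl2* comparison, with control (grey) and mutant (red) lungs of the same replicate number joined by a line and the axis starting at 0. *Plin2*, *Fabp5* and *Pthlh* are higher and *Pth1r* is lower in the mutant in 3 of 3 joined lungs. The genes not shown, *Tcf21*, *Lpl*, *Pparg* and *Fabp4*, differed in sign between the replicate numbers. The share of all genes with the same sign in each number was not computed.

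Alveolar type II markers also differed within these numbers. The summed normalized count of 8 such markers was 293278, 178404 and 214078 in control replicates 1 to 3 and 416945, 316473 and 247612 in mutant replicates 1 to 3, so the sum was higher in each mutant than in the control of the same number. Mutant replicate 1, the lung with the most type II markers, was also the highest for *Plin2* and *Fabp5*. Macrophage markers had a sum over 6 genes between 3539 and 4446 in controls and between 6117 and 6419 in mutants. No marker of either list was at 0 in any of these lungs, and 0 of 8 and 0 of 6 passed the test. With the block 1 type II marker (*Sftpa1*) and 3 macrophage markers (*Cd68*, *Csf1r* and *C1qa*) passed, all higher. Neutrophil markers differed by more, with a sum over 5 genes of 4113, 3094 and 3393 in controls and 7942, 15526 and 19764 in mutants. Of these 5, *S100a8*, *S100a9* and *Retnlg* rose without the block (limma log2 fold changes 2.18, 2.14 and 2.68, adjusted p = 0.0316, 0.0422 and 0.0202), and all 5 were called higher with it. Endothelial markers had a sum over 8 genes between 78916 and 87705 in controls and between 47209 and 75945 in mutants. Of the 8, 0 passed without the block, and *Kdr* and *Tie1* were called lower with it, in a fit that called 8.95% of all genes. The part of these markers in the *Plin2* and *Fabp5* values was not tested.

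Both genes kept the call under the block when control replicate 3, a lung with adipocyte markers, was left out (adjusted p = 0.0401 for *Plin2* and 0.0365 for *Fabp5*). Mutant replicate 3 then has no partner, so that fit rests on replicate numbers 1 and 2, and it called 1788 of 17101 genes. The other genes did not pass with the block, and their adjusted p-values were 0.112 for *Pthlh*, 0.118 for *Pth1r* and 0.341 or more for *Tcf21*, *Pparg*, *Lpl* and *Fabp4*. A difference in the *Plin2* change between *Ror2* and *Vangl2* mutants at P5 was not shown (-0.49 on the log2 scale, 95% interval -1.05 to 0.06, adjusted p = 0.998).

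*Fabp4* (chr3:10204088-10208576, minus strand) encodes the adipocyte fatty acid binding protein, which lung endothelium and macrophages can also make. It was the most variable of the 8 genes, from 49.6 to 2734 normalized counts over 24 lungs. In the P2 *Vangl2* comparison the controls had 120.1, 119 and 149 and the mutants 410.3, 128 and 366. Mutants 1 and 3 were well above the controls and mutant 2 lay among them (log2 fold change 1.05, standard error 0.41, 95% interval 0.09 to 2.00, adjusted p = 0.189, and 0.0222 with DESeq2). In the same lungs the macrophage sum was 4015 to 4479 in controls and 5122 to 6356 in mutants, with 1 of 6 markers, *C1qa*, called higher (limma adjusted p = 0.0498). The neutrophil sum was 2566 to 4161 in controls and 7487 to 11076 in mutants, with 5 of 5 called higher, while the endothelial sum overlapped between the groups (72466 to 82768 and 71772 to 82004). The summed count of 7 adipocyte markers was 371 in mutant 3, with 162 for *Ucp1*. It was 32.0 and 23.6 in mutants 1 and 2 and 27.4 to 130 in controls. The part of all these markers in the *Fabp4* values was not tested. In the P2 *Ror2* comparison the controls had 127, 409.9 and 282 and the mutants 138, 115 and 231 (log2 fold change -0.67, standard error 0.45, adjusted p = 0.427). The difference between the mutants at P2 was -1.72 on the log2 scale (95% interval -3.20 to -0.23, limma adjusted p = 0.946).

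At P5 the *Fabp4* groups overlapped in both comparisons. The *Ror2* controls had 85.8, 71.3 and 49.6 normalized counts and the mutants 149, 109 and 77.3 (log2 fold change 0.67, standard error 0.30, adjusted p = 0.282). The *Vangl2* controls had 79.4, 253 and 2734 and the mutants 529, 276 and 869, so that control replicate 3 alone was above every mutant. The control mean was 1022 ± 1485 (SD, n = 3) and the mutant mean 558 ± 298, yet the log2 fold change was 0.40, because the log scale gives the high lung less weight (standard error 1.11, 95% interval -2.16 to 2.96). With edgeR and DESeq2 the log2 fold change was -0.87 with either tool. Without control replicate 3 it was 1.82 in limma.

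That control lung also held fat markers. The summed normalized count of 7 adipocyte markers was 4255 in control replicate 3, beside 51.1 and 15.3 in the other P5 *Vangl2* controls and 831, 39.2 and 482 in the mutants. *Ucp1*, which marks brown fat, had 2637 normalized counts there and was listed at 0 in the other 2 controls, and it had 404, 3.36 and 227 in the mutants. *Adipoq* had 364 in that control and 0.912 and 0 in the others. *Pparg* (266) and *Lpl* (3459) were highest in the same lung among the 6. In the other comparisons the adipocyte sum reached 130 in P2 *Vangl2* controls, 371 in P2 *Vangl2* mutants, 340 in P2 *Ror2* controls and 38.2 in P5 *Ror2* lungs, and the P2 *Ror2* control with 340 was also the highest of its 6 lungs for *Fabp4* and *Pparg*. The P2 *Vangl2* mutant with 371, replicate 3, was the highest of its 6 lungs for *Pparg*, and for *Fabp4* it was below mutant replicate 1 alone. Of the 7 adipocyte markers 6, 6, 7 and 4 were tested in the *Vangl2* comparisons at P2 and P5 and the *Ror2* comparisons at P2 and P5, 0 passed in each, and 0, 0, 1 and 1 had an unadjusted p under 0.05. The shares over all genes at that p were 22.5%, 18.8%, 19.3% and 18.4%. The part of the adipocyte markers in the *Fabp4*, *Pparg* and *Lpl* values was not tested.

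**Figure D4:**
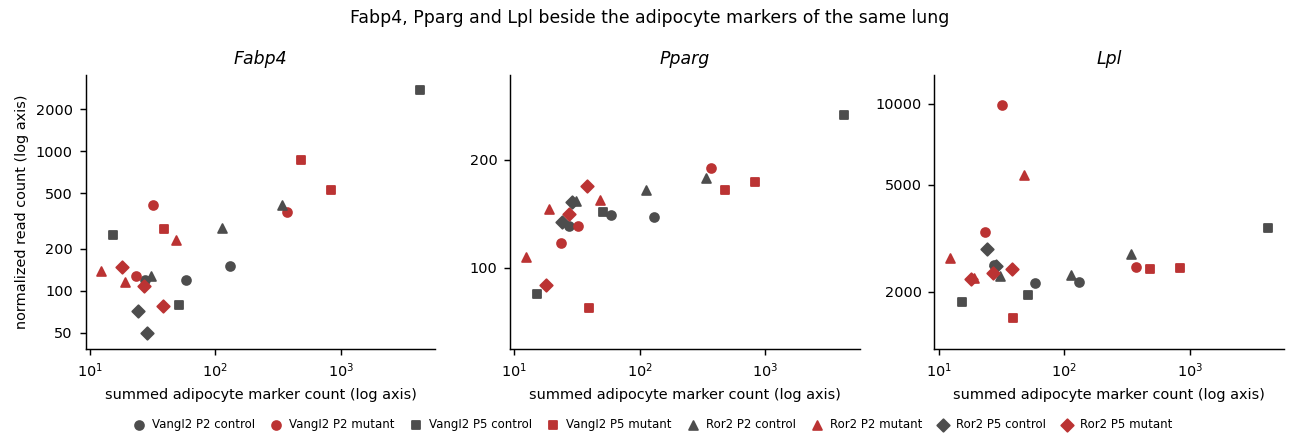
Normalized counts of *Fabp4*, *Pparg* and *Lpl* against the summed normalized count of 7 adipocyte markers in the same lung (both axes logarithmic), with control lungs in grey, mutant lungs in red and a symbol for each comparison. The P5 *Vangl2* control at 4255 on the horizontal axis is the highest for *Fabp4* and *Pparg*, while the 2 highest *Lpl* lungs (9878 and 5441) have sums of 32.0 and 48.3.

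Of 35 genes of lipid uptake and droplets, all 35 were tested in each comparison and 0 passed in each. Some of them, such as *Cd36* and *Plin4*, are also among the PPAR gamma partners and targets, so the lists overlap. At an unadjusted p under 0.05 the counts were 15, 7, 9 and 8 in the *Vangl2* comparisons at P2 and P5 and the *Ror2* comparisons at P2 and P5. The shares over all genes tested were 22.5%, 18.8%, 19.3% and 18.4%. The median log2 fold change of the 35 genes was 0.19, 0.13, 0.0933 and 0.0326. With edgeR 0 passed, and in the P5 *Ror2* comparison both tools tested 22 of the 35, on covered chromosomes. With DESeq2 8 of 33 passed in the P2 *Vangl2* comparison, 6 higher (*Cd36*, *Plin4*, *Dgat2*, *Pnpla2*, *Hilpda* and *Fitm2*) and 2 lower (*Fabp7* and *Slc27a3*), and 3 of 28 passed in the P2 *Ror2* comparison, *Lpin1*, *Pnpla2* and *Hilpda*, all higher. The tool called 13.0% and 6.12% of all genes in these comparisons. With the replicate block in the P5 *Vangl2* comparison 2 passed, *Slc27a1*, a fatty acid transporter, which was higher, and *Mgll*, the monoglyceride lipase, which was lower. That fit called 8.95% of all genes.

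Of 14 other lipofibroblast markers, 13 were tested in each comparison and 0 passed. For these markers the counts at an unadjusted p under 0.05 were 8, 8, 3 and 2, beside 22.5%, 18.8%, 19.3% and 18.4% of all genes. Their median log2 fold change was 0.06, -0.23, 0.14 and -0.16, so the sign of the median differed between comparisons. With the replicate block in the P5 *Vangl2* comparison 3 of 13 passed (8.95% of all genes did), with *Ces1d* higher and *Gyg* and *Pdgfra* lower. The summed normalized count of the 14 markers was lower in all mutants than in all controls in 3 comparisons. It was 130670 to 158858 beside 162406 to 170474 in the P2 *Vangl2* lungs, 130341 to 171279 beside 196433 to 226080 in the P5 *Vangl2* lungs and 166191 to 217503 beside 237968 and 238642 in the P5 *Ror2* lungs. Of single genes, 14.9%, 12.5% and, with 2 controls, 18.4% showed this order in these comparisons. Such a sum follows the most abundant markers. In the P2 *Vangl2* lungs the median log2 fold change of the tested markers was 0.06, so the sum does not describe the typical marker there. In the P2 *Ror2* lungs the sums overlapped, at 157946 to 174531 in mutants and 162896 to 175605 in controls. *Inmt*, a methyltransferase gene of this list, was picked out after its values were seen. Its log2 fold change was positive in all 4 comparisons, without a call. It had 927, 128 and 163 normalized counts in the P2 *Vangl2* controls and 5800, 4565 and 1328 in the mutants (log2 fold change 3.60, standard error 0.80, adjusted p = 0.0533). In the P2 *Ror2* comparison it had 567, 368 and 1017 in controls and 2763, 2007 and 7429 in mutants (log2 fold change 2.53, standard error 0.53, adjusted p = 0.203). At P5 the log2 fold change of *Inmt* was 2.745 in *Vangl2* mutants (limma adjusted p = 0.126) and 1.398 in *Ror2* mutants (limma adjusted p = 0.327).

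Across lungs, the 8 genes did not vary as a block. With each group's mean removed from the log2 values, Pearson's r over 23 or 24 lungs was 0.65 between *Plin2* and *Fabp5*, 0.60 between *Pthlh* and *Fabp4*, 0.54 between *Pparg* and *Fabp4* and 0.53 between *Lpl* and *Fabp4*. It was -0.72 between *Lpl* and *Pth1r*, -0.61 between *Pthlh* and *Pth1r* and -0.50 between *Fabp4* and *Pth1r*. *Tcf21* stayed between -0.44 and 0.14 with each of the others. These are descriptions across lungs that share tables and size factors, and the control with the fat markers is among them.

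**Figure D5:**
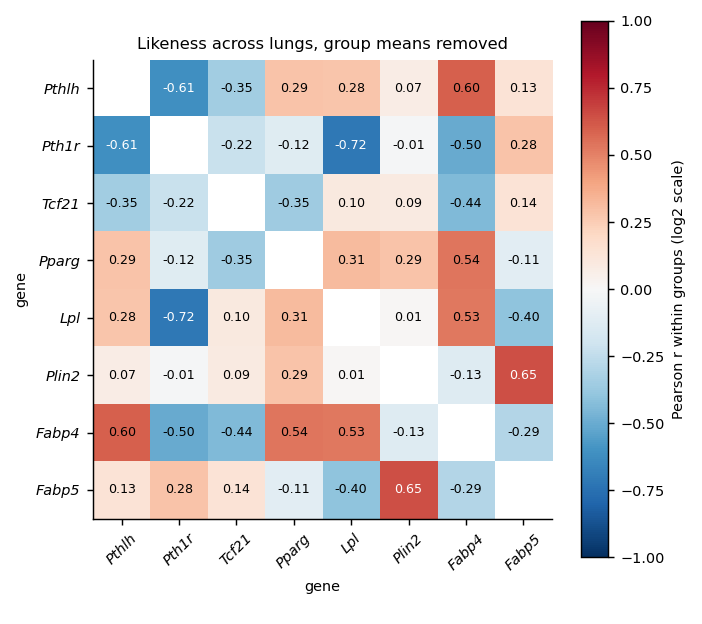
Pearson's r between each pair of the 8 genes over 23 or 24 lungs, computed on log2(normalized count + 1) after subtracting each group's mean. *Plin2* with *Fabp5* is the highest pair (0.65), and *Pth1r* is negative with *Lpl* (-0.72) and *Pthlh* (-0.61).

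Among 12660 other genes with a mean normalized count of at least 50 in every table, the most alike by the same measure were *Mrc2* (r = 0.92), *B4galt2* and *Ntn3* for *Pth1r*, *Trpv6* (0.89), *Gltscr2* and *Rp9* for *Tcf21*, and *Ltc4s* (0.89), *Ifi35* and *Crip1* for *Plin2*. For *Lpl* they were *Txnip* (0.89), *Pnpla2* (0.88) and *Igfbp3* (0.88). The mutant lung with the highest *Lpl* at P2 in the *Vangl2* comparison also had the most *Igfbp3*, 7636 normalized counts beside 1038 and 827 in the other mutants and 426 to 566 in controls. For *Pparg* they were *Abhd11* (0.88), *Coq3* and *Mrpl3*, for *Fabp4* *Etfdh* (0.88), *Ppara* and *Gpd1*, for *Fabp5* *M6pr* (0.85), *Pnp* and *Gpx2*, and for *Pthlh* *Sfrp1* (0.86), *Clu* and *Lbp*.

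Promoter sequence was held by RefSeq (GRCm38.p6) for 5 of the 8 genes, from 250 bases before to 50 after the start, namely *Tcf21*, *Plin2*, *Pparg*, *Pthlh* and *Pth1r*. Those of *Plin2*, the droplet gene that passed with the block, and of *Pth1r*, the receptor whose groups did not overlap in either *Vangl2* comparison, are printed from 250 bases before to 30 after the start of the RefSeq transcript, on the strand of the gene, with motif matches in capitals.
Plin2, chr4:86670030-86670309, minus strand: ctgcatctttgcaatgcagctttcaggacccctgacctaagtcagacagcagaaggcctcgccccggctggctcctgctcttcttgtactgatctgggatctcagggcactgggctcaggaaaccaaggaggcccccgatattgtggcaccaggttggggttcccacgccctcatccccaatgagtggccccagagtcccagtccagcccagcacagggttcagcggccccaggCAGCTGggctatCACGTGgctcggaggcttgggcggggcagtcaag
Pth1r, chr9:110747116-110747395, minus strand: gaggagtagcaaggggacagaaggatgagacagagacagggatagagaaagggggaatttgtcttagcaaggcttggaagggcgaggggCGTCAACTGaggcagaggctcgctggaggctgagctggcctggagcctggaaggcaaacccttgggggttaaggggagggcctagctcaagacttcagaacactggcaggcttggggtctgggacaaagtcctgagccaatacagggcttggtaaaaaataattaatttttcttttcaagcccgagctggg

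The motifs searched, on both strands, were the E-box CANNTG that basic helix-loop-helix factors such as TCF21 bind, the cyclic AMP response element TGACGTCA, its short form TGACG, and the PPAR gamma element, a direct repeat of AGGTCA with 1 base between. *Plin2* held 2 E-boxes in its 300 bases, 16 and 4 bases before the start. *Pth1r* held, in the promoter shown, 1 short form read on the opposite strand that shares bases with 1 E-box. Its other promoters, which start further into the gene, held 0 short forms, and that at chr9:110742561-110742860 held 1 E-box, 4 bases before its start. Which of these starts the lungs used was not tested. Among 32851 mouse promoters of this length, 72.3% hold an E-box, 20.8% the short form, 1.79% the full element and 0.0396% the direct repeat, and the last 2 were in 0 of the promoters of the 5 genes. These matches are descriptions of the sequence and not binding sites.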

How the data were processed

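RNA of left lung lobes was sequenced by the authors, who deposited, for each of 4 comparisons, signal values per gene: reads on mm10 scaled by each lung's size factor (DESeq2 in the submitters' processing notes). The aligner, counter and annotation are not given in the sources used here. Each table also holds the authors' own fold changes and p-values, which were not used, and 27 entries named as dates. All values are whole multiples of 1 step per lung (100% within 0.02 of a whole read). Raw counts had been planned for, with edgeR as the test. As the values are normalized, limma (version 3.58.1, R 4.3.3; trend) was run on log2(value + 1) for genes at 1 or more in at least 3 of 6 lungs, and p-values were adjusted by Benjamini-Hochberg across every tested gene. Differences between comparisons were fitted over 12 lungs with each table's own controls, and levels were not compared between tables. In control replicate 1 of the P5 *Ror2* comparison, 8083 genes on chromosomes 5 to 9 and X were set to missing. edgeR 4.0.16 and DESeq2 1.42.0 were run on recovered reads as alternatives, and the limma test was checked on simulated data. Same-numbered lungs deviated together in the P5 *Vangl2* comparison (r = 0.528, 0.531 and 0.283 over 13152 genes). In the P2 *Ror2* comparison this held for replicates 2 and 3 but not 1 (r = 0.397, 0.283 and 0.041 over 13189 genes). In the P2 *Vangl2* and P5 *Ror2* comparisons r ran from -0.13 to 0.153. The labels do not say whether lungs came from littermates, so p-values measure the spread between these lungs. Positions and transcript lengths come from GENCODE M21. Named by rule were the 8 genes, the targeted genes, pathway and lipofibroblast list genes past the threshold, and the 3 genes most alike each of the 8. Other markers and genes called by alternatives were named after their values were seen. Some list genes are not reported here and were left out of the list counts. The 8 genes and the lists were chosen with earlier results of these data known.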

Additional observations from a re-analysis of the deposited data

How the results depend on the processing

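The count of the 8 genes called was 0 in every comparison as reported. It became 1 in the P2 *Vangl2* comparison with DESeq2 (*Fabp4*, beside 13.0% of all genes). It became 1 in the P5 *Ror2* comparison with DESeq2 (*Tcf21*, beside 6.74% of genes on covered chromosomes), where *Lpl*, *Pparg*, *Pthlh* and *Pth1r* were not fitted. In the P5 *Vangl2* comparison it became 2 with the replicate block, both with all 6 lungs and without control replicate 3 (*Plin2* and *Fabp5*). The block called 8.95% of all genes with all 6 lungs and 1788 of 17101 without that control. The block changed no other call of the 8 genes. With 1 lung left out the count ran from 0 to 1 in the P2 *Vangl2* comparison (*Tcf21* without mutant replicate 3) and was 0 in the other 3. No change between comparisons was called under any of the 7 alternatives.

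Directions turned for some log2 fold changes. In the P5 *Vangl2* comparison *Fabp4* was -0.87 with edgeR and -0.87 with DESeq2, and with the block and without control replicate 3 *Lpl* was 0.0671 and *Pparg* 0.0709. In the P5 *Ror2* comparison the replicate block gave 0.11 for *Pparg*, -0.0344 for *Pthlh* and 0.0184 for *Pth1r*, and keeping control replicate 1 as deposited, where these genes are listed at 0, gave 3.60 for *Lpl*, 2.24 for *Pparg* and 3.11 for *Pth1r*. Differences between comparisons that turned were *Pparg* between mutants at P5 (-0.0171 with upper-quartile scaling), *Tcf21* between ages in *Vangl2* mutants (0.0005 with upper-quartile scaling and 0.14 with quantile normalization), and *Plin2* (0.0228 and 0.059) and *Pparg* (-0.0895 with quantile normalization) between ages in *Ror2* mutants. With 1 lung left out, the ranges that crossed 0 were -0.11 to 0.54 for *Pthlh*, -0.14 to 0.21 for *Pparg* and -0.45 to 0.11 for *Fabp5* in the P2 *Vangl2* comparison, -0.73 to 1.82 for *Fabp4*, -0.29 to 0.17 for *Lpl* and -0.58 to 0.24 for *Pparg* in the P5 *Vangl2* comparison, -0.20 to 0.0509 for *Fabp5* and -0.0021 to 0.26 for *Plin2* in the P2 *Ror2* comparison, and -0.35 to 0.11 for *Pparg*, -0.0344 to 0.69 for *Pthlh* and -0.20 to 0.0478 for *Pth1r* in the P5 *Ror2* comparison. The cause was not tested. The number of all genes called in the P5 *Vangl2* comparison was 98 as reported, 4 without the trend, 1558 with the block and 1273 with DESeq2. It was 626 as reported in the P2 *Vangl2* comparison, 1 without the trend, 18 without a filter, 50 over 12 lungs and 2001 with DESeq2. With 1 lung left out it was 122, 1 and 1 without control replicates 1, 2 and 3, and 536, 33 and 2333 without mutant replicates 1, 2 and 3. It ran from 0 (without mutant replicate 3) to 54 in the P5 *Vangl2* comparison, from 0 to 859 (without mutant replicate 2) in the P2 *Ror2* comparison and from 0 to 802 (without mutant replicate 3) in the P5 *Ror2* comparison. Counting error was computed for *Pthlh*, at 7 to 38 reads a lung, and not for the other 7 genes.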
